A study of Mus musculus with 6 samples.

Results

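The 10 genes described here are those of the interleukin 1 family and tumour necrosis factor circuit: the ligands Il1a, Il1b, Il18, Il33 and Tnf, the antagonist Il1rn, the receptors Il1r1 and Il1r2, and the feedback inhibitors Nfkbia and Tnfaip3. Their rows were found by name, as those of the deposited table whose only gene symbol was one of these. Each gene had exactly 1 such row. The 10 genes were chosen with earlier results of these data known. They were 10 of 20255 genes that could be named, and all 10 were among the 15191 bright enough to be tested.

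Large skin wounds in mice can regrow hair follicles inside the scar, and the study asked what sets scars with many new follicles apart from scars with few. Whole scar biopsies were hybridised to Affymetrix exon arrays, which report a log2 level for each transcript cluster, so that 1 log2 unit is a 2-fold difference. Each group held 3 mice, called high and low regeneration in the labels, with 1 high and 1 low sample at each of days 4, 6 and 9 after the wound had closed. The series' design text describes the low mice as having no regenerated follicles. All 6 samples were wounded skin. Unwounded skin was not analysed here, and the labels give no strain, age or sex.

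Interleukin 1 alpha and beta bind the same receptor, encoded by Il1r1, and switch on the transcription factor NF-kB through the adaptor MyD88. The antagonist encoded by Il1rn occupies that receptor without signalling, and the product of Il1r2 is a decoy that captures the ligand. Tumour necrosis factor reaches NF-kB through its own receptors, and NF-kB in turn induces Nfkbia and Tnfaip3, whose products shut the pathway off. In skin, keratinocytes hold interleukin 1 alpha and IL-33 ready for release on injury, while interleukin 1 beta and tumour necrosis factor come largely from activated myeloid cells.

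The samples were alike over all genes tested, with correlations between arrays of 0.933 to 0.987 across genes, which are not independent replicates. Basal keratinocyte markers (7 of 7 found, mean levels of 8.13 to 12.99) and fibroblast markers (6 of 7 found, 8.56 to 13.25) were well measured. The low-regeneration sample of day 9 stood apart in its sex-linked genes. Its Xist level was 12.77. The low-regeneration sample of day 6 also had more Xist, at 7.30, than the other 4, at 5.75 to 5.82, but its Y-linked genes were like theirs. The Uty level of the day 9 sample was 3.88, against 7.46 to 8.07. In the day 9 pair, group and sex therefore cannot be told apart. The high-regeneration sample of day 4 differed from the rest at H2-Ea (6.59, against 4.09 to 4.43) and H2-Ob (6.16, against 7.68 to 8.07), genes of the histocompatibility complex. Some results are given with and without these pairs. A result given only with all pairs may still rest on 1 of them.

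The comparison of high with low regeneration was made within days. Of the 10 genes, 5 had higher values in the high-regeneration sample of every pair: Il1b, Il1r1, Il1r2, Nfkbia and Tnfaip3. Of all genes tested, 15.8% did so. None of the 5 passed the test across all genes (limma with the day as a block, Benjamini-Hochberg adjusted p under 0.05). Over all genes 8 passed, which is 0.0527%, and 0 of these 10 genes were among them. At an unadjusted p under 0.05 there were the same 5 genes higher and 0 lower, where 4.89% of all genes were higher and 5.17% lower. Without the day 4 pair the higher ones were Il1b, Il1r2, Il33 and Tnfaip3 (5.09% of all genes). Without the day 6 pair they were Il1b, Il1r1, Il1r2 and Tnfaip3 (3.61%). Without the day 9 pair they were Il1b, Il1r2, Tnf, Nfkbia and Tnfaip3 (3.42%). The median difference of the 10 genes was 0.203 log2 units, and that of all genes was -0.003. Since the 10 genes were chosen with earlier results known, their counts and median are not independent of these data.

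The samples of both groups did not overlap for Il1b, Il1r1, Il1r2 and Tnfaip3, with every high-regeneration sample above every low one, as for 5.08% of all genes. Without the day 4 pair these 4 genes still did not overlap, where 15.4% of all genes did so with 2 pairs. Without the day 6 pair it was the same 4 genes (12.3% of all genes). Without the day 9 pair there were 6, with Tnf and Nfkbia added (18.1%). In the opposite direction, Il18 was the 1 gene with lower values in every high-regeneration sample of a pair (18.3% of all genes). It was also the 1 gene with every high-regeneration sample below every low one (6.18% of all genes).

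**Figure D1:**
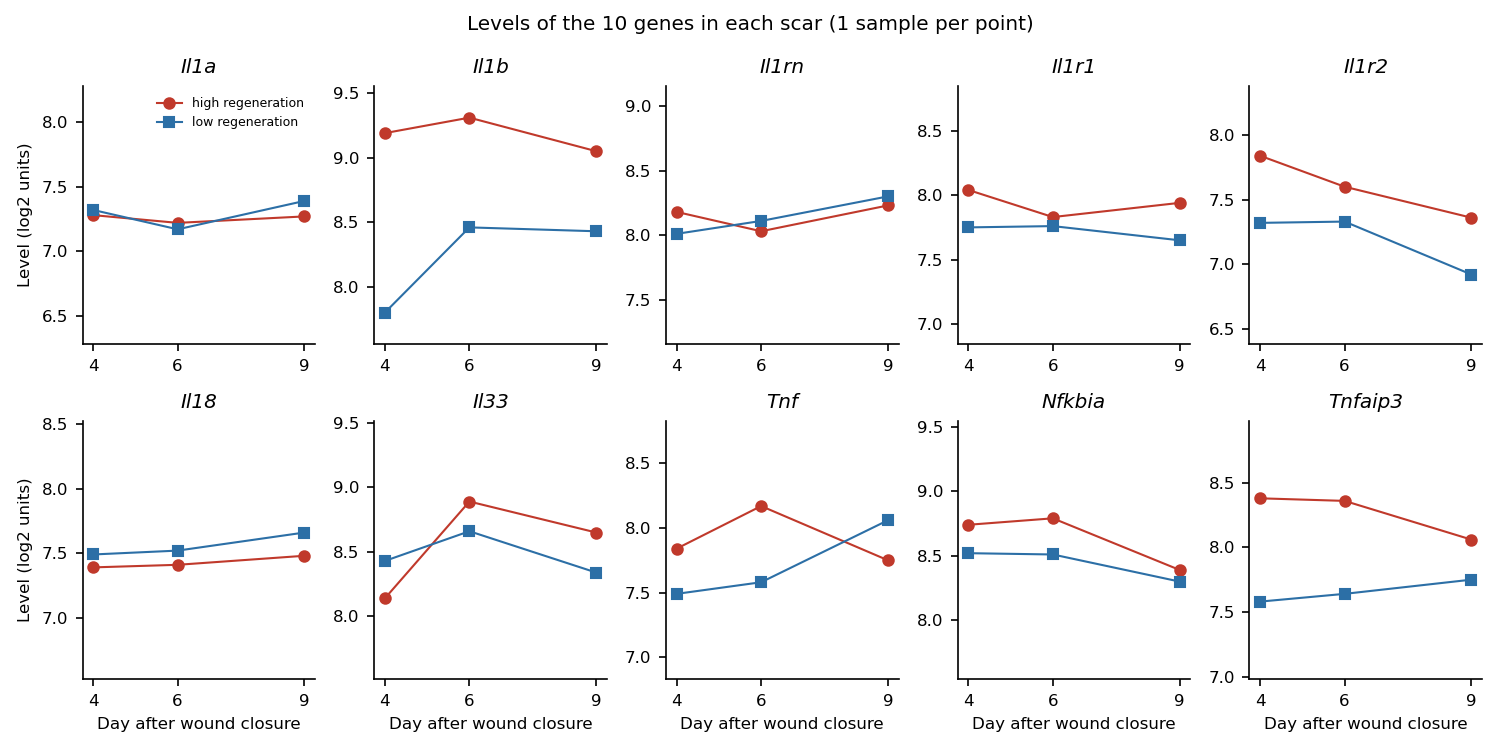
Levels of the 10 genes in log2 units (y axis, each panel spanning 2 units) against the day after wound closure (x axis), with 1 sample per point. Circles are high and squares low regeneration. The lines of Il1b and Tnfaip3 stay apart at all 3 days, those of Il1a and Il1rn run close together, and those of Tnf and Il33 cross.

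Among the ligands, Il1b, the secreted form of interleukin 1 made as an inactive precursor, stood farthest apart. Its level in high-regeneration scars was 9.19, 9.31 and 9.05 log2 units at days 4, 6 and 9. In the low-regeneration samples it was 7.80, 8.46 and 8.43. The low sample of day 4 was the lowest of the 6, and the group means were 9.18 ± 0.13 and 8.23 ± 0.37 (SD, n = 3). The pair differences were 1.38, 0.86 and 0.62, a mean of 0.95 ± 0.39 (SD, n = 3 pairs, 1.94-fold), with a 95% interval of 0.55 to 1.36 and an adjusted p of 0.230 in limma. Only 0.481% of all genes tested differed by as much in either direction. The mean was 0.74 when the day 4 pair was left out and 1.12 when the day 9 pair was.

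Il1a, which encodes the other agonist of the same receptor, lies near Il1b on chromosome 2 and did not share its pattern. Its levels were 7.28, 7.22 and 7.27 in high-regeneration scars and 7.32, 7.17 and 7.39 in the low ones. The groups overlapped and the whole range over the 6 samples was 0.22 units. The mean difference was -0.04 ± 0.08 (SD, n = 3 pairs), and its 95% interval in limma ran from -0.21 to 0.14. The log2 ratio of Il1b to Il1a within an array was higher in the high-regeneration sample by 1.42, 0.81 and 0.75 at days 4, 6 and 9. That is a 1.99-fold shift of the ratio (0.99 ± 0.37, SD, n = 3 pairs). An exact two-sided permutation test that swaps labels within days gave p = 0.25, which is the smallest it can give with 3 pairs. It gave the same p for all 3 ratios tested here, and the Benjamini-Hochberg value over the 3 was 0.25 as well.

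The promoter windows of Il1b and Il1a are shown because the levels of these ligands of 1 receptor followed different patterns. Each runs from 250 bases before to 50 bases after a RefSeq start site of the assembly GRCm38.p6, written 5′ to 3′, and capitals mark matches to the TATA motif (TATAAA) or the AP-1 motif (TGANTCA, the same on both strands) on either strand.
Il1b, chr2:129371090-129371389, minus strand: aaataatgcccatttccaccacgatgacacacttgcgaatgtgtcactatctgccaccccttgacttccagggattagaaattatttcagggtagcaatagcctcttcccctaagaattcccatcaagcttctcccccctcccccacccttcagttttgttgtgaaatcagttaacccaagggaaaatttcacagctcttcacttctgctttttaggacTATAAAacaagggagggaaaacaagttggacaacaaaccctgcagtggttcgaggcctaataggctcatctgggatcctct
Il1a, chr2:129309923-129310222, minus strand: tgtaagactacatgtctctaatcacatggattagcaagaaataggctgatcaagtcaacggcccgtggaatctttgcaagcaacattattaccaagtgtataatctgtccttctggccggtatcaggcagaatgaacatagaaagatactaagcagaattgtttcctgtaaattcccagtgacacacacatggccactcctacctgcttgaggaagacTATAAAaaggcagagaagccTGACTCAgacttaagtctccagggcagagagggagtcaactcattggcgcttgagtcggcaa
The TATA match begins 31 bases before the start site in Il1b and 32 before it in Il1a. A TATA match anywhere in the window was present in 7 of the 10 genes and in 14.2% of 27025 windows, 1 per gene. The window of Il1a also holds an AP-1 match 12 bases before the start, and so does that of Il1rn 141 bases before it. An AP-1 match was present in 3 of the 10 genes and in 7.92% of all windows. None of the 10 windows held the cyclic AMP response element TGACGTCA (1.85% of all windows) or the CArG box of serum response factor (1.59%).

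The antagonist Il1rn showed no separation. Its levels were 8.18, 8.03 and 8.23 in high-regeneration scars and 8.01, 8.11 and 8.30 in the low ones. The groups overlapped, and the difference of 0.01 ± 0.14 (SD, n = 3 pairs) had a 95% interval of -0.20 to 0.21. The log2 ratio of Il1b to its antagonist was higher in the high-regeneration sample of every pair, by 1.21, 0.93 and 0.69, a mean of 0.94 ± 0.26 (SD, n = 3 pairs, 1.93-fold).

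Il18 encodes a ligand that, like interleukin 1 beta, is cut to its active form by caspase 1. Its levels were 7.39, 7.41 and 7.48 in high-regeneration scars and 7.49, 7.52 and 7.66 in the low ones. Each high sample lay just below all low ones, with a mean difference of -0.13 ± 0.04 (SD, n = 3 pairs, adjusted p = 0.559 in limma). The gap between the groups was 0.01 units.

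Il33, an alarmin kept in the nucleus of keratinocytes and stromal cells, differed in sign between days. Its levels were 8.14, 8.89 and 8.65 in high-regeneration scars and 8.43, 8.66 and 8.34 in the low ones. The pair differences of -0.29, 0.23 and 0.31 gave a mean of 0.08 ± 0.33 (SD, n = 3 pairs, adjusted p = 0.869 in limma). The mean was 0.27 when the day 4 pair was left out and -0.03 when the day 9 pair was. The high sample of day 4 was the lowest of the 6 and the high sample of day 6 the highest.

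Tnf, which encodes tumour necrosis factor, had levels of 7.84, 8.17 and 7.75 in high-regeneration scars and 7.49, 7.58 and 8.06 in the low ones. The high sample was the higher one at days 4 and 6 and the lower one at day 9. The mean difference was 0.21 ± 0.47 (SD, n = 3 pairs, adjusted p = 0.733 in limma). It was 0.47 without the day 9 pair and 0.02 without the day 6 pair. The 95% interval with all pairs, -0.27 to 0.69, holds differences in both directions.

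Of the receptors, the decoy Il1r2 had levels of 7.84, 7.60 and 7.36 in high-regeneration scars and 7.32, 7.33 and 6.92 in the low ones. The groups did not overlap, but the lowest high sample lay only 0.03 units above the highest low one, since both groups had lower levels at the last day. Within days the differences were 0.52, 0.27 and 0.45, a mean of 0.41 ± 0.13 (SD, n = 3 pairs, 1.33-fold, adjusted p = 0.262 in limma).

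Il1r1, the signalling receptor, had levels of 8.04, 7.83 and 7.94 in high-regeneration scars and 7.75, 7.76 and 7.65 in the low ones. The groups were 0.07 units apart. The mean difference was 0.22 ± 0.13 (SD, n = 3 pairs, adjusted p = 0.467 in limma), and the pair differences were 0.29, 0.07 and 0.29. The log2 ratio of the decoy to the signalling receptor was higher in high-regeneration scars by 0.23, 0.21 and 0.16, a mean of 0.20 ± 0.04 (SD, n = 3 pairs, 1.15-fold).

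Of the feedback inhibitors, Tnfaip3 encodes A20, an enzyme that edits ubiquitin chains and so dampens signals from both the interleukin 1 and the tumour necrosis factor receptors. Its levels were 8.38, 8.36 and 8.06 in high-regeneration scars and 7.58, 7.64 and 7.75 in the low ones. All high samples were above all low ones, by at least 0.31 units. The pair differences of 0.80, 0.72 and 0.31 gave a mean of 0.61 ± 0.27 (SD, n = 3 pairs, 1.52-fold), with a 95% interval of 0.31 to 0.91 and an adjusted p of 0.274 in limma. A difference of this size or more was seen in 1.62% of all genes tested.

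Nfkbia encodes the inhibitor that holds NF-kB in the cytoplasm. Its levels were 8.74, 8.79 and 8.39 in high-regeneration scars and 8.52, 8.51 and 8.30 in the low ones. The high sample of day 9 lay below the low samples of days 4 and 6, so the groups overlapped. Within days the differences were 0.23, 0.28 and 0.08, a mean of 0.20 ± 0.10 (SD, n = 3 pairs, 1.15-fold, adjusted p = 0.472 in limma).

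**Figure D2:**
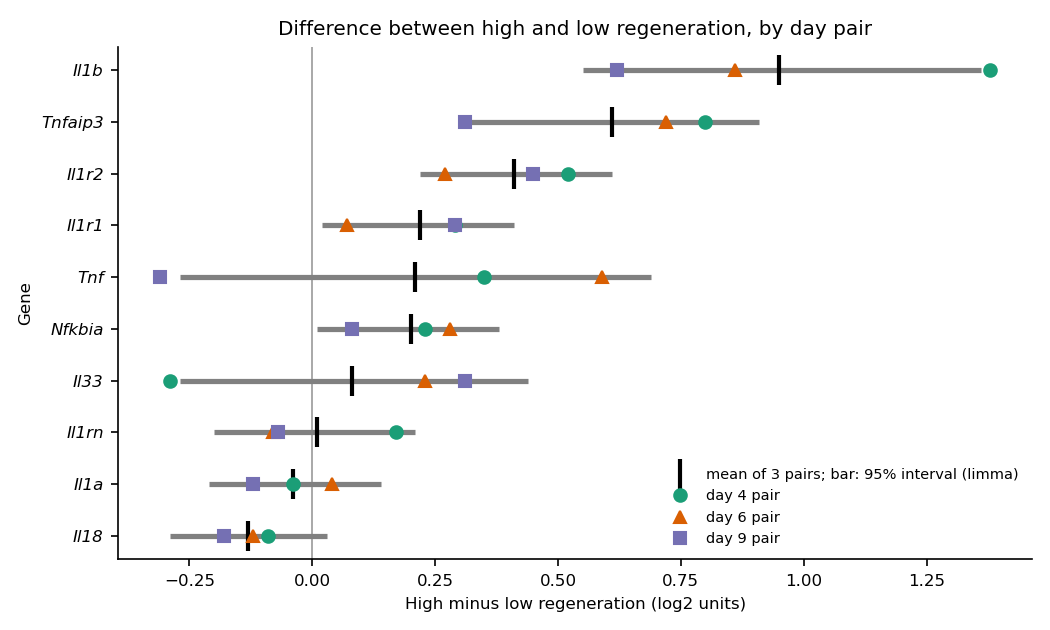
High minus low regeneration in log2 units (x axis) for each of the 10 genes (y axis). Symbols are the day 4, 6 and 9 pairs, vertical ticks the mean of 3 pairs, and grey bars the 95% interval from limma without adjustment for multiple tests. Il1b and Tnfaip3 have the largest means, 0.95 and 0.61, while the pairs of Tnf and Il33 fall on both sides of 0.

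The windows around the start sites of the 2 feedback inhibitors are shown because they were the only ones of the 10 with a match to the NF-kB consensus, on either strand, and 8.19% of all windows had one. Capitals mark matches to the NF-kB, AP-1 or TATA motif.
Tnfaip3, chr10:19015361-19015660, minus strand: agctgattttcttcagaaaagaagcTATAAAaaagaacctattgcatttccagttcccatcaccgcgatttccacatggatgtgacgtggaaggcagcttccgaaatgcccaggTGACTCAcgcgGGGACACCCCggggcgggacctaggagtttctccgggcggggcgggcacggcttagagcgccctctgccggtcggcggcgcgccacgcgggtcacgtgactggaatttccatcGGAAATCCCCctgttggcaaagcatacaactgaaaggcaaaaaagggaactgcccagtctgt
Nfkbia, chr12:55492598-55492897, minus strand: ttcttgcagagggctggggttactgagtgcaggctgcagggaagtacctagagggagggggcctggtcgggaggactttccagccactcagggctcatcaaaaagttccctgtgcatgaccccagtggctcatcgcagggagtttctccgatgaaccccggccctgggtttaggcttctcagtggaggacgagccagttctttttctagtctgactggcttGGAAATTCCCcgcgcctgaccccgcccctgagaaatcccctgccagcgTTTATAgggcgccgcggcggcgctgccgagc
In Tnfaip3 the NF-kB matches are GGGACACCCC, 125 bases before the start site and matching on both strands, and GGAAATCCCC, 12 bases before it, with an AP-1 match 136 bases before it. In Nfkbia the match is GGAAATTCCC, 29 bases before the start site. These matches describe the letters of the windows, and binding was not measured.

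Marker levels are given beside these values, since in a whole biopsy fewer cells of a type and less RNA per cell cannot be told apart. Neutrophil markers overlapped between the groups. Their summed level (log2 of the sum over the 12 found) was 9.39 to 10.07 in high-regeneration scars and 9.46 to 9.91 in the low ones. Of the 12, 7 were below the limit for dim genes, among them the defining marker Ly6g, and the median difference of the other 5 was -0.002. Summed levels of macrophage and monocyte markers overlapped between the groups as well, at 12.85 to 13.15 against 12.91 to 13.04, with a median difference of -0.008 over 11 of 12. Of the 11, 1 was higher and 0 were lower in every pair (15.8% and 18.3% of all genes), and the others had mixed signs. The higher one was Cd14, a co-receptor for bacterial lipopolysaccharide on myeloid cells. Its differences were 0.83, 0.25 and 0.50, with groups 0.01 units apart (0.53 ± 0.29, SD, n = 3 pairs, adjusted p = 0.361 in limma). Immediate early genes, the fast first transcriptional response of a cell to stimuli, did differ. All 12 of 12 were higher in every pair (15.8% of all genes), but the list was chosen with earlier results of these data known. Their summed level was 14.52 to 14.68 against 13.67 to 13.73, and their median difference was 0.820. Of these Nr4a1, Fos and Fosb passed over all genes (adjusted p = 0.0381 for each in limma), and each lost the call without the day 4 pair (adjusted p = 0.298) and without the day 9 pair (0.601), Fos also without the day 6 pair (0.0519). Each also lost it without the filter on dim genes (0.072) and after quantile normalization (0.0545 for Nr4a1 and Fos, 0.0746 for Fosb). The part of this difference and of that of Cd14 in the values of Il1b, Tnfaip3 and Nfkbia was not tested. The other marker lists, except that of T cells, are given by their median difference, overall and then at days 4, 6 and 9. Langerhans and dendritic cell markers had -0.139, with -0.53, 0.02 and 0.07, and skeletal muscle markers 0.372, with 0.86, 0.12 and 0.09, so that both were farthest from 0 in the day 4 pair. Mast cell markers had 0.072, with -0.10, 0.31 and 0.03, and endothelial markers -0.066, with 0.00, -0.09 and -0.15. Wound-edge keratinocyte markers (3 of 6 found) had -0.301, with 0.47, -0.88 and -0.50, and hair shaft markers 1.338, with 2.72, -0.08 and 1.49. Basal keratinocyte markers had 0.006, with 0.23, -0.07 and -0.02, and suprabasal ones -0.027, with 0.06, -0.05 and -0.07. Fibroblast markers had -0.029, with -0.09, -0.05 and -0.04.

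The genes whose level profile over the 6 samples lay nearest to that of Il1b were sought among the 15190 others tested. The measure was the root mean square distance after each gene was centred on its own mean. The nearest were Ier2 (0.150 log2 units), A830049F12Rik (0.172), Gadd45g (0.184), Kcne4 (0.188) and Adamts1 (0.198), where the median distance over all genes was 0.542. Ier2 is an immediate early gene, and Gadd45g encodes a stress-induced growth arrest protein. In the order named, the differences of the nearest genes between high and low regeneration were 0.87, 0.68, 0.91, 0.69 and 0.95. These genes were chosen for profiles near that of Il1b over the same samples, so differences like its own follow largely from that choice. For Il33 and Tnf no such search was made, since their levels ranged over less than 1 log2 unit.

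Of the other ligands of the interleukin 1 family, the IL-36 genes did not follow Il1b. The table names the IL-36 genes by their older symbols. Il1f6, Il1f8 and Il1f9 encode the agonists IL-36 alpha, beta and gamma, made mainly by keratinocytes, and Il1f5 encodes the antagonist of their receptor. All 4 had lower values in the high-regeneration sample of every pair (18.3% of all genes), and Il1f10, which encodes IL-38, had higher ones. For Il1f8 the day 4 samples were nearly equal, with pair differences of -0.02, -0.34 and -0.37. All 5 were listed and tested, 0 of 5 passed over all genes, and the list median was -0.286. At an unadjusted p under 0.05, 4 were lower (5.17% of all genes) and 1 was higher (4.89%). Without the day block Il1f6, Il1f8 and Il1f9 no longer met that threshold, and their adjusted p in limma was 0.917, 0.867 and 0.927.

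Il1f6 had levels of 9.50, 9.82 and 10.29 in high-regeneration scars and 10.07, 10.21 and 10.71 in the low ones. The low samples were higher within each day, although the groups overlapped because both groups had higher levels at later days. The difference was -0.46 ± 0.10 (SD, n = 3 pairs, adjusted p = 0.206 in limma). Il1f9 had pair differences of -0.69, -0.38 and -0.30, a mean of -0.46 ± 0.20 (SD, n = 3 pairs, adjusted p = 0.318). Il1f5 had 10.18, 10.15 and 10.23 against 10.39, 10.50 and 10.53, which did not overlap, with a difference of -0.29 ± 0.07 (SD, n = 3 pairs, adjusted p = 0.361). The agonist genes and their antagonist thus lay lower in the same samples. Il1f8 differed by -0.24 ± 0.19 and Il1f10 by 0.27 ± 0.06 (both SD, n = 3 pairs). Il1f10 had the lowest levels of this list, with means of 6.47 in high-regeneration scars and 6.20 in the low ones. Summed levels of suprabasal keratinocyte markers overlapped between the groups, at 14.70 to 14.73 against 14.67 to 14.79.

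**Figure D3:**
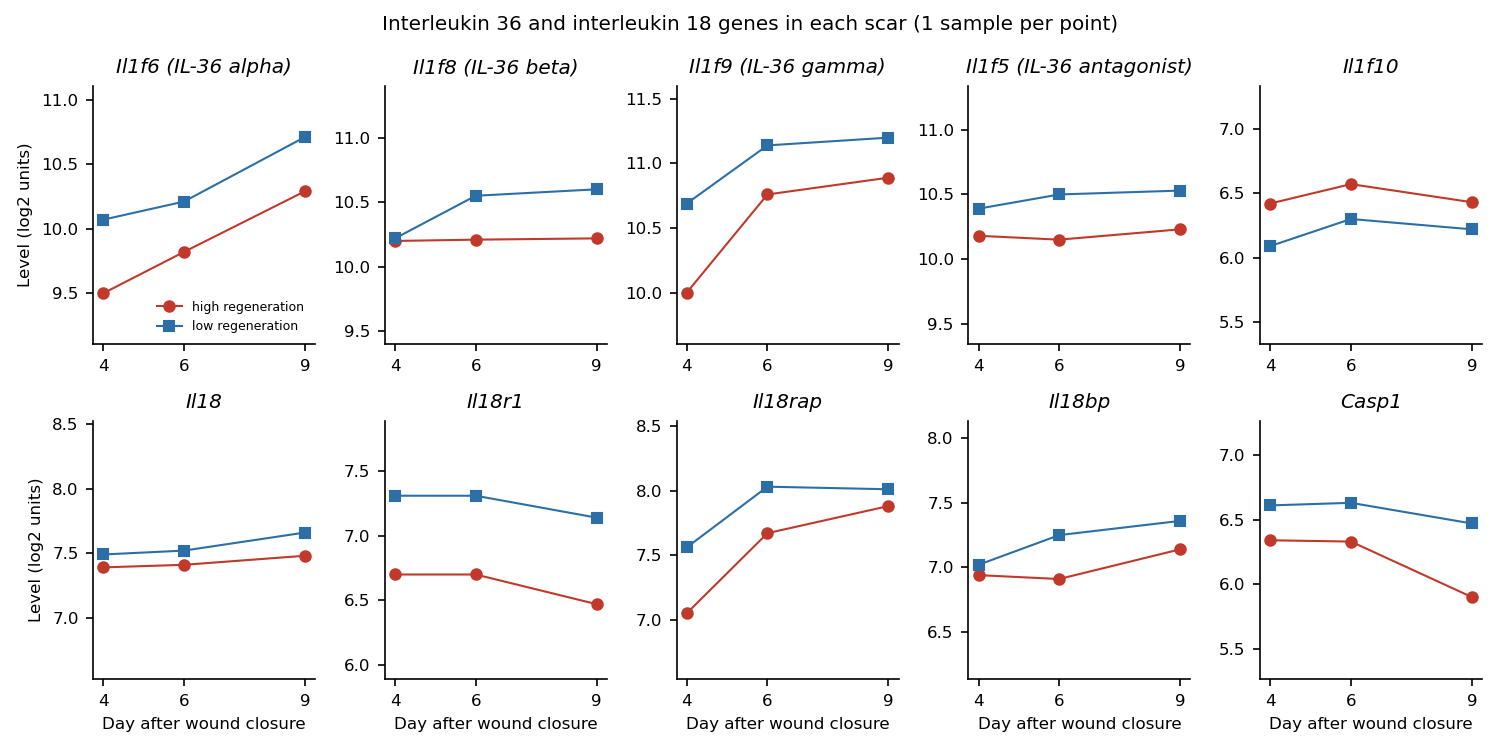
Levels in log2 units (y axis, each panel spanning 2 units) of IL-36 genes, Il1f10, and the IL-18 genes with Casp1 against the day after wound closure (x axis), 1 sample per point, circles for high and squares for low regeneration. Apart from Il1f10, every panel has the low-regeneration sample above the high one at each day, though Il1f8 is nearly equal at day 4 (-0.02).

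The receptor genes of IL-18 had lower values in high-regeneration scars, as Il18 did. Among 16 of 18 genes found for interleukin 1 family receptors and their signalling, the 3 of lowest p were Il18r1, Il18rap and Il18bp, and 0 passed over all genes. Il18r1, the ligand-binding chain, had levels of 6.70, 6.70 and 6.47 in high-regeneration scars and 7.31, 7.31 and 7.14 in the low ones. The groups did not overlap, and the difference was -0.63 ± 0.04 (SD, n = 3 pairs, 1.54-fold higher in low, adjusted p = 0.135 in limma). Il18rap, the accessory chain, differed by -0.33 ± 0.19 and Il18bp, a secreted protein that neutralises the ligand, by -0.21 ± 0.13 (both SD, n = 3 pairs). Both receptor chains are known from T and natural killer cells. T cell markers did not all go one way. Their summed level, over 6 of 7 found, was 9.71 to 10.01 in high-regeneration scars against 10.15 to 10.24, and the median difference of the 5 tested was -0.247, with 0 passing over all genes. Of these Cd3e (-0.47 ± 0.27), Cd3g (-0.82 ± 0.53) and Cd28 (-0.25 ± 0.36, each SD, n = 3 pairs) were lower in every pair, while Cd247 (0.06) and Cd2 (-0.04) had mixed signs. At days 4, 6 and 9 Cd3e differed by -0.51, -0.18 and -0.72 and Cd3g by -0.55, -0.48 and -1.43. Cd28 differed by -0.02, -0.06 and -0.66. All of these were largest at day 9, where group and sex cannot be told apart. Cd3d, too dim to be tested, was higher in every pair, by 0.42, 0.24 and 1.25. The part of T cells in the difference of Il18r1 was not tested. Over the whole receptor and signalling list, 4 of 16 genes were higher and 5 lower in every pair (15.8% and 18.3% of all genes), and the median was -0.023.

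Genes of the inflammasome, the complex that activates caspase 1, had a median of -0.085 over 11 tested. Of these 0 were higher and 5 lower in every pair (15.8% and 18.3% of all genes), and 0 passed. Casp1, whose product cuts interleukin 1 beta and IL-18 to their active forms, had levels of 6.34, 6.33 and 5.90 in high-regeneration scars. They were 6.61, 6.63 and 6.47 in the low ones, so the groups did not overlap. The difference was -0.38 ± 0.16 (SD, n = 3 pairs, adjusted p = 0.347 in limma), opposite in sign to that of Il1b. Gsdmd, the pore protein through which interleukin 1 beta leaves the cell, differed by -0.20 ± 0.15 (-0.135 without the day 4 pair) and Pycard, the inflammasome adaptor, by -0.13 ± 0.10 (both SD, n = 3 pairs).

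The receptors and signalling proteins of tumour necrosis factor had a median of -0.118 over 14 tested of 16 listed, with 2 higher and 5 lower in every pair (15.8% and 18.3% of all genes) and 0 passing. Casp8, which starts cell death downstream of the receptor, differed by -0.27 ± 0.03, the signalling adaptor Traf1 by -0.25 ± 0.08 and Cyld, a deubiquitinase that restrains NF-kB, by -0.27 ± 0.12 (all SD, n = 3 pairs). The list of NF-kB subunits, kinases and inhibitors had a median of -0.011 over 13 tested of 15 listed, with 3 higher and 2 lower in every pair (against the same shares of all genes) and 0 passing. Its member of lowest p was Nfkbiz, an inducible nuclear cofactor of NF-kB. Its levels were 8.88, 8.73 and 8.84 in high-regeneration scars and 8.34, 8.33 and 8.47 in the low ones, a difference of 0.44 ± 0.09 (SD, n = 3 pairs, adjusted p = 0.212 in limma). Tnip1 and Tnip3, which encode partners of A20, differed by -0.13 ± 0.10 and 0.20 ± 0.24 (both SD, n = 3 pairs). Tnip1 differed by -0.086 without the day 9 pair, and Tnip3 by 0.329 without the day 4 pair and 0.089 without the day 6 pair.

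Among 20 tested of 22 listed genes known as NF-kB targets, 9 were higher and 1 was lower in every pair (15.8% and 18.3% of all genes), and the median was 0.213. Il6 and Csf2 were too dim to be tested. Both were higher in every pair, Il6 by 2.07, 1.18 and 1.98 and Csf2 by 0.33, 0.17 and 0.17. This list was chosen with the result for its best-known members in view, so its count is not independent. Over all genes 2 passed, Ptgs2, which encodes inducible cyclooxygenase (1.90 ± 0.21, adjusted p = 0.0381 in limma), and Cxcl1, a chemokine for neutrophils (1.08 ± 0.09, adjusted p = 0.0476), both SD of n = 3 pairs. Both lost the call without the day 4 pair (adjusted p = 0.298) and without the day 9 pair (0.601), and Ptgs2 also without the day block (0.247). Both lost it as well without the filter on dim genes (0.072 for Ptgs2, 0.0862 for Cxcl1) and after quantile normalization (0.0545 for each).

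**Figure D4:**
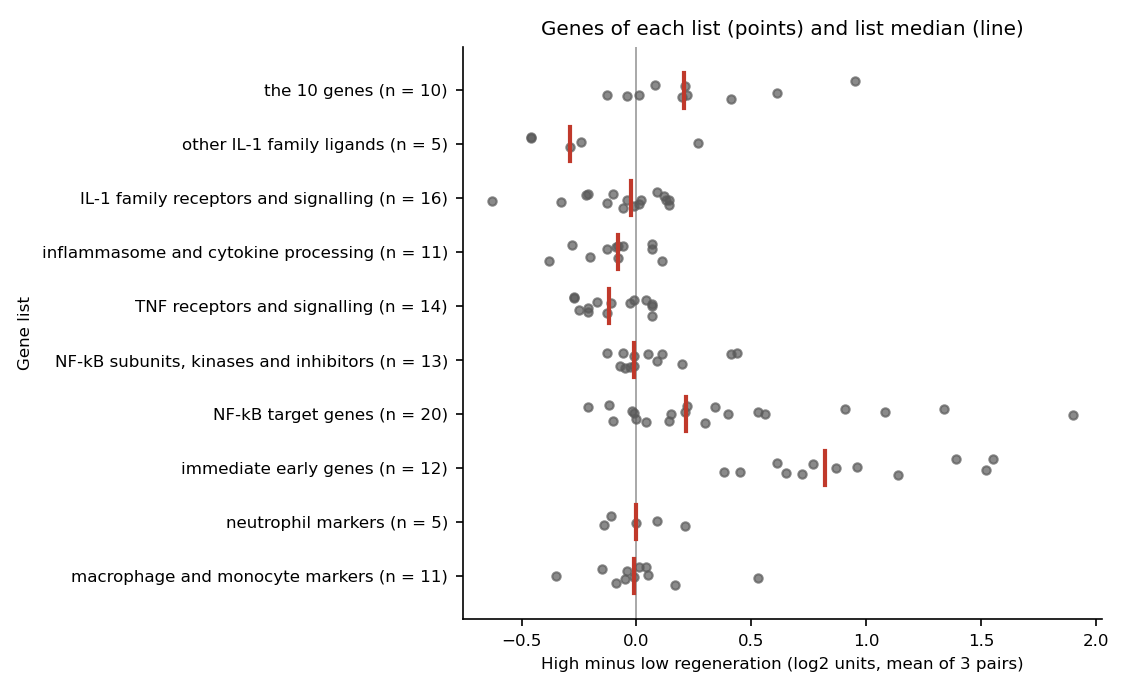
High minus low regeneration in log2 units (x axis, mean of 3 pairs) for each tested gene (points) of the gene lists (y axis), with the list median as a vertical line. Of the marker lists only those of neutrophils and of macrophages and monocytes are drawn. Among the lists drawn the medians run from -0.286 for the other interleukin 1 family ligands to 0.820 for immediate early genes. The 10 genes have a median of 0.203. Outside this range lie 2 lists not drawn, hair shaft markers (1.338) and wound-edge keratinocyte markers (-0.301).

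Change over days was the slope per day in both groups together. None of the 10 genes passed, nor did any gene tested (0%). At an unadjusted p under 0.05 there were Il1r2 and Nfkbia, 2 of 10, against 16.2% of all genes. Il1r2 had a slope of -0.090 ± 0.019 log2 units per day (SE, adjusted p = 0.185 in limma), and day 9 minus day 4 was -0.48 with high and -0.40 with low regeneration. Nfkbia had a slope of -0.061 ± 0.021 (SE, adjusted p = 0.267). The slopes of the other 8 genes lay between -0.018 and 0.045. With 1 pair per day, the day and anything else a pair shared cannot be told apart.

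The difference in slope between the groups passed for 0 of the 10 genes and for 0% of all genes. At an unadjusted p under 0.05 it was seen for Tnfaip3, 1 of 10, against 3.96% of all genes. From day 4 to day 9 the level of Tnfaip3 differed by -0.32 with high and by 0.18 with low regeneration, and the slope difference was -0.102 ± 0.035 log2 units per day (SE, adjusted p = 0.988 in limma). The values of Il1b (-0.147 ± 0.072) and Tnf (-0.145 ± 0.066, both SE) had the same sign, and high and low samples lay closer together, or crossed, at day 9. With 1 sample left out, the slope difference of Il1b ran from -0.358 (without the low sample of day 9) to -0.023 (without the low sample of day 4). That of Tnfaip3 ran from -0.135 to -0.047 (without the high samples of day 4 and of day 9), and that of Tnf was 0.050 without the high sample of day 9. The differences in slope of the 10 genes ran from -0.147 to 0.114.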

How the data were processed

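The authors deposited 1 table of log2 expression levels for 6 mouse scar biopsies, each hybridised to an Affymetrix exon array. Per the submitters' processing notes, Expression Console and PLIER were used. No version or order is given there, and the log2 scale was read from the deposited values, since no source names it. No source used here names a genome build. Medians of the arrays were 6.044 to 6.099, so no scaling was added.

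Of 53145 rows, 25466 had 1 gene symbol in the platform annotation, 2299 several and 25380 none. Of the named rows, 24868 matched the RefSeq table of GRCm38.p6 by gene ID, with 0 symbols updated. The row of highest mean stood for a gene (3090 of 20255 genes had more than 1), and the lowest 25% by mean, below 5.6, were left out, leaving 15191. Probes were not checked against background.

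High minus low regeneration was fitted with limma 3.58.1 in R 4.3.3 (lmFit, eBayes, two-sided) with the day as a block, and the slope per day with a group term. The slope difference added their interaction. P-values were Benjamini-Hochberg adjusted over all genes tested, with a threshold of 0.05. Residual degrees of freedom were 2, 3 and 2, so the number of arrays limits the precision. The p-values reflect only how these samples vary among themselves, which may be partly technical. The design text says that each pair was taken at 1 date after closure, so the day pairs the samples. Deviations of same-day samples from their group means correlated at 0.5, 0.112 and 0.56, and those of different days at -0.491 to 0.141. Centring each group on its own mean builds in part of this contrast, and the day 6 value lies within the range of different days. The fits were tested on simulated data.

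The 10 genes, gene lists, marker lists and tests were chosen with earlier results of these data known. Besides the 10 genes, the text names the genes of each pathway list that passed, otherwise the 3 of lowest p, and the 5 profiles nearest to Il1b. Il1f8 and Il1f10 are named beyond this rule, after their values were seen, as are the genes of the library check, Ly6g, Cd14, Il6, Csf2 and the T cell markers. Promoters were searched on both strands. Alternatives were no filter on dim genes, quantile normalization, the mean of a gene's rows, a variance trend, no day block, and leaving out pairs or samples.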

Additional observations from a re-analysis of the deposited data

How the results depend on the processing

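None of the 10 genes passed any of the 3 tests under any alternative run. With no replicate block, 0 of the 10 genes passed high minus low (4 at an unadjusted p under 0.05, against 5 with the block), and 6 genes passed over all. Of the named genes Ptgs2 lost its call there (adjusted p = 0.247), and the other calls held. Over all genes, 8 passed in high minus low, and 0 without the filter on dim genes, 0 after quantile normalization, 11 with the mean of rows and 9 with a variance trend. Leaving out the day 4, 6 or 9 pair gave 0, 35 and 0. For the slope 0 passed, but 130 without the high sample of day 6, and for the slope difference 0 passed, but 1 without the high sample of day 4 and 83 without that of day 9. Over 8 alternatives, high minus low of Il1b ran from 0.738 to 1.12 (adjusted p 0.208 to 0.606), of Tnfaip3 from 0.511 to 0.760 (0.245 to 0.606) and of Il1r2 from 0.359 to 0.484 (0.239 to 0.789), and that of Tnf from 0.016 to 0.468. None of these 4 reversed in sign. The values that follow did reverse, and the cause was not tested. With 1 pair left out, high minus low ran from -0.080 to 0.005 (without day 9) for Il1a, from -0.073 (without day 4) to 0.051 for Il1rn, and from -0.031 (without day 9) to 0.272 for Il33. With 1 sample left out, the slope ran from -0.011 (without low, day 9) to 0.019 for Il1a, -0.027 (low, day 4) to 0.107 for Il1b, -0.039 (high, day 4) to 0.093 for Il33, -0.018 (low, day 9) to 0.124 for Tnf, and -0.054 to 0.029 (high, day 9) for Tnfaip3. The slope difference, likewise, ran from -0.074 to 0.071 (low, day 9) for Il1a, -0.130 to 0.006 (high, day 4) for Il1rn, -0.083 (high, day 9) to 0.058 for Il1r1 (-0.022 without low, day 9), -0.100 to 0.044 (low, day 4) for Il1r2 (0.005 without high, day 4), -0.055 (high, day 4) to 0.403 for Il33 (-0.027 without low, day 9), -0.259 to 0.050 (high, day 9) for Tnf, and -0.091 to 0.071 (high, day 9) for Nfkbia. For Il1r1 it was also -0.001 after quantile normalization.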
